A study of Mus musculus with 5 samples.

Results

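The genes described here make, carry, degrade and read retinoic acid, the active form of vitamin A. They are 9 of the 56691 gene IDs in the deposited table, chosen by symbol: the retinol dehydrogenases Rdh10 and Dhrs9, the retinaldehyde dehydrogenases Aldh1a1, Aldh1a2 and Aldh1a3, the binding proteins Crabp1 and Crabp2, the degrading enzyme Cyp26b1 and the receptor gene Rarg. RNA was sequenced from back skin keratinocytes of mice aged 28 days, in 3 libraries of cells sorted for GFP (GFP 1, 2 and 3) and 2 libraries titled bulk (Bulk 1 and 2). The labels call the GFP cells Lrig1 positive keratinocytes and epidermal stem cells with the genotype Lrig1 positive, and the Bulk cells basal keratinocytes with the genotype WT. The labels name neither the reporter allele, its promoter nor the sort gates, and do not say that libraries of a group came from separate animals, so p-values measure only the spread between these libraries, part of which may be technical.

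Retinol enters cells and is stored as esters or oxidised in 2 steps, first by alcohol and short-chain dehydrogenases to retinaldehyde and then by the ALDH1A enzymes to retinoic acid. CRABP proteins bind retinoic acid in the cytoplasm, CYP26 enzymes hydroxylate it for removal, and in the nucleus it activates RAR receptors paired with RXR partners on DNA. In skin, retinoids are known to act on keratinocyte differentiation, on the sebaceous gland and on the hair cycle.

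Libraries held 56829330 to 105887450 counts. GFP 3 stood apart in the genes of the sex chromosomes: it had 53714 counts of Xist, the X-inactivating RNA of female cells, against 0 to 8 elsewhere, and 62 of Ddx3y, from the Y chromosome, against 1750 to 4462 elsewhere. By these genes GFP 3 was mainly female and the other libraries male, so GFP 3 did not come from the animal of GFP 1 or GFP 2. Sex was thus unbalanced between the groups, and its part in their differences was not tested. Results are therefore also given without GFP 3. Lrig1, the gene behind the label, was at 209.8, 226.2 and 212.7 CPM (counts scaled to a common library size, TMM-adjusted) in GFP 1, 2 and 3, against 163.4 and 155.2 CPM in Bulk 1 and 2. Its log2 difference of 0.44 ± 0.18 was not called (edgeR adjusted p = 0.292). With the replicate block it was called (edgeR adjusted p = 0.00676). GFP 1 and Bulk 1 share the title number 4143, GFP 2 and Bulk 2 share 4145, and the labels do not say what these numbers mean. The labelled genotype differs between GFP and Bulk libraries even where they share a number, and cannot be told apart from sorting. The replicate block is a fit with the title number as a term. It leaves 1 residual degree of freedom, and 19.7% of all tested genes were called lower and 16.4% higher in it. The SE of a gene can shrink much there, as for Stra6 from 0.78 to 0.16. Its p-values are therefore not comparable with those of the fit without the block. GFP 3 alone carries 4146, so it adds nothing to the group difference in that fit, which rests on the 2 pairs.

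Retinoic acid receptors bind DNA at direct repeats of a short half-site, and genes such as Rarb and Cyp26a1 are known to respond to the hormone through such repeats. The 100 bases before the start of these genes are printed to show what a repeat looks like, with the repeat in capitals, beside the same stretch of the members Cyp26b1 and Crabp1, in which the search found none (RefSeq, build GRCm38.p6, given 5′ to 3′ on the gene's strand). Rarb lies at chr14:16575477-16575576 on the minus strand, Cyp26a1 at chr19:37697708-37697807 on the plus strand, Cyp26b1 at chr6:84593811-84593910 on the minus strand and Crabp1 at chr9:54764648-54764747 on the plus strand.
Rarb: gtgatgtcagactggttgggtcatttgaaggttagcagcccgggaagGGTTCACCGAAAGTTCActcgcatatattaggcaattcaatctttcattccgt
Cyp26a1: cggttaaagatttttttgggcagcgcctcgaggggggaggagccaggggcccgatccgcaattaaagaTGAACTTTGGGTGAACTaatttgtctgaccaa
Cyp26b1: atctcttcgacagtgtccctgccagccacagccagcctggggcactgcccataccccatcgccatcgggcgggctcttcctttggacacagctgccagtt
Crabp1: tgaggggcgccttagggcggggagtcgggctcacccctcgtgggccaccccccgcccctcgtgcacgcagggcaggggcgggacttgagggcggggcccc

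The repeat began 53 bases before the start of Rarb and 32 bases before that of Cyp26a1. The search used 4 half-sites, AGGTCA with its variants AGTTCA, then GGGTCA, and also GGTTCA, in any pair, spaced by 1, 2 or 5 bases, on both strands, in windows from 250 bases before to 50 bases after each start. A pair's half-sites do not overlap each other, and the spacings were counted separately, so that repeats of different spacing may overlap. Of all 32851 windows, 0.222% held a repeat spaced by 1 base, 0.268% one spaced by 2 and 0.0974% one spaced by 5. None of the 8 windows of the 6 matched members, Crabp1, Aldh1a1, Aldh1a2, Dhrs9, Cyp26b1 and Rarg, held one. Promoters of Aldh1a3, Crabp2 and Rdh10 were not analysed here. Among the 62 windows of 42 genes of the wider pathway, 3 held a repeat, those of Rarb and Cyp26a1 (5 bases) and of Bco1 (1 base). Base composition varied widely among the members' windows. GC content was 78% in that of Aldh1a2, with 50 CpG dinucleotides, and 43.7% in that of Dhrs9, with 5. Both Rarb and Cyp26a1 were scarce in every library: Rarb had 6, 9 and 3 counts in GFP 1, 2 and 3, against 22 and 51 in Bulk 1 and 2, and Cyp26a1 had 6, 5 and 1 counts in the GFP libraries, against 1 and 21 in the Bulk libraries.

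RNA of 1 enzyme that makes retinoic acid and of both CRABP genes made up a smaller share of GFP libraries than of Bulk libraries. Aldh1a3 was 17-fold lower, Crabp1 5.14-fold lower and Crabp2 2.3-fold lower in GFP libraries. Without GFP 2 or without GFP 3, only 1 member, Aldh1a3, was still called. The other 6 members, Rdh10, Dhrs9, Aldh1a1, Aldh1a2, Cyp26b1 and Rarg, were not called, and their GFP and Bulk values overlapped. All 9 members passed the filter on low counts, with 19 to 58915 counts in a library. By edgeR's quasi-likelihood test over all 18583 tested genes (Benjamini-Hochberg, threshold 0.05), 3 members were lower and 0 higher, against a background of 5.14% of tested genes lower and 0.145% higher. The members and the lists used below were chosen with earlier results of these data known. Counts set beside a background are therefore descriptions and not tests. Of the 9 members, 3 had all GFP libraries below both Bulk libraries and 0 had them above, where 18.5% and 14.6% of tested genes did. No member was higher by edgeR at an unadjusted p under 0.05 either, or called higher by DESeq2 or limma-voom (0 in each). Of all 18583 tested genes, DESeq2 called 188 higher and limma-voom 37. The median log2 change was 0.03 over the members and 0.051 over all tested genes. With the replicate block, 3 members were lower and 1 higher (background 19.7% lower and 16.4% higher). With the block and the libraries' trend on gene length and GC content removed, 3 were lower and 2 higher (background 16.9% and 15.8%).

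**Figure D1:**
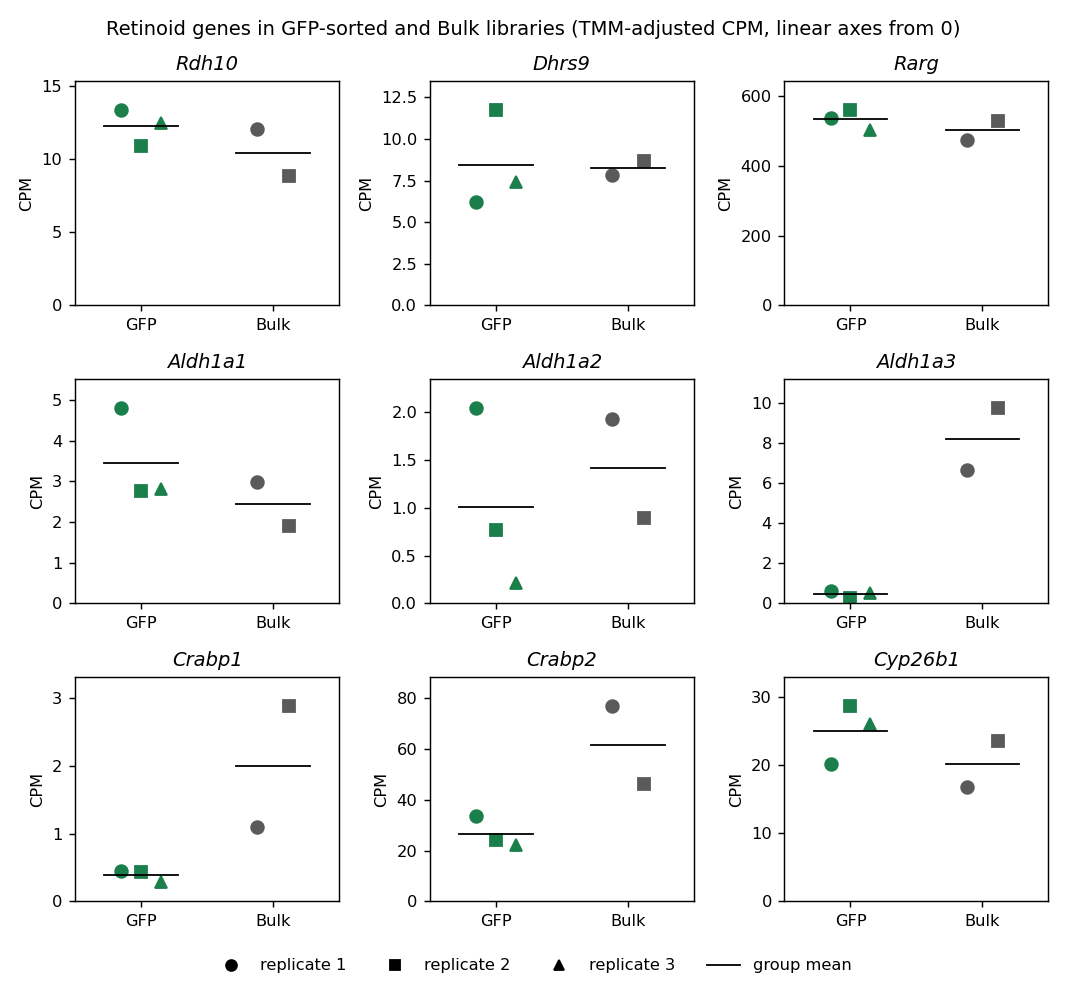
TMM-adjusted CPM of the 9 genes in each library (y axis, linear from 0), with GFP libraries left and Bulk libraries right; symbols mark replicate numbers and lines mark group means. Aldh1a3, Crabp1 and Crabp2 have every GFP point below both Bulk points, and in the other 6 panels the groups overlap.

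The first step, retinol to retinaldehyde, had no called member. Rdh10, the retinol dehydrogenase known to be essential in the mouse embryo, was at 13.4, 10.9 and 12.5 CPM in GFP 1, 2 and 3, against 12.04 and 8.87 CPM in Bulk 1 and 2. The groups overlapped, with a log2 difference of 0.23 ± 0.23 (edgeR adjusted p = 0.69). Dhrs9, a short-chain dehydrogenase that acts on retinol among other substrates, was at 6.21, 11.7 and 7.39 CPM in GFP libraries, against 7.86 and 8.67 CPM in Bulk libraries. Both Bulk values lay within the GFP range, and the log2 difference was 0.03 ± 0.31 (edgeR adjusted p = 0.975), a value that turned negative under several settings.

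Among other genes of this step, 3 were called lower. Rdh1, a retinol dehydrogenase gene, was at 1.36, 1.84 and 1.13 CPM in GFP 1, 2 and 3, against 14.5 and 10.3 CPM in Bulk 1 and 2. It fell by 3.10 ± 0.31 on the log2 scale (8.59-fold lower, edgeR adjusted p = 0.00106) and was called under all 15 alternatives. Its close relative Rdh16 had 14, 13 and 5 counts in GFP libraries, against 141 and 131 in Bulk libraries. The log2 difference of -3.64 ± 0.60 (edgeR adjusted p = 0.0113) was not called without Bulk 1 (edgeR adjusted p = 0.0873). Reads of Rdh1, Rdh16 and their neighbours can be shared between copies, so the split between them is uncertain. Adh1, an alcohol dehydrogenase that oxidises retinol, was at 9.93, 9.02 and 3.32 CPM in GFP libraries, against 35.2 and 22.5 CPM in Bulk libraries. It fell by 1.96 ± 0.44 on the log2 scale (edgeR adjusted p = 0.0415), a call lost without Bulk 1 (0.216), Bulk 2 (0.0819) or GFP 2 (0.0546). Of 20 listed genes of retinol and retinaldehyde conversion, 17 were tested, 3 were lower, 0 higher and 14 not called, with a median log2 change of -0.12. In the block fit 5 were lower and 4 higher (background 19.7% and 16.4% of tested genes). Besides Rdh1, Rdh16 and Adh1, those lower there were Sdr16c5 and Sdr16c6, at -0.54 and -0.61 on the log2 scale without the block. The 4 higher were Adh5, Adh7, Dhrs4 and Rdh14, at 0.67, 0.52, 0.45 and 0.39 on the log2 scale without the block, and neither they nor the 2 Sdr16c genes were called without it. Dhrs3, which reduces retinaldehyde back to retinol, was at 33.9, 35.4 and 35.8 CPM in GFP libraries, against 34.0 and 37.6 CPM in Bulk libraries.

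The 3 genes for the enzymes of the second step differed from one another. Aldh1a3 (ENSMUSG00000015134.16) was at 0.633, 0.287 and 0.514 CPM in GFP 1, 2 and 3, against 6.64 and 9.74 CPM in Bulk 1 and 2, from 50, 19 and 48 counts and 397 and 1086 counts. Every GFP library was far below both Bulk libraries, with means of 0.478 ± 0.176 CPM (SD, n = 3) in GFP libraries and 8.19 ± 2.20 CPM (SD, n = 2) in Bulk libraries. It fell by 4.09 ± 0.39 on the log2 scale (edgeR adjusted p = 0.000921). The call held under all 15 alternatives, among them the fit without GFP 3 (log2 -4.14, edgeR adjusted p = 0.00253) and those without 1 Bulk library (edgeR adjusted p = 0.00257 without Bulk 1 and 0.00792 without Bulk 2).

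Aldh1a1 (ENSMUSG00000053279.9), which also oxidises other aldehydes, was at 4.80, 2.78 and 2.82 CPM in GFP libraries, against 2.98 and 1.89 CPM in Bulk libraries. GFP 1 was the highest and Bulk 2 the lowest, with GFP 2 and GFP 3 below Bulk 1. The log2 difference of 0.51 ± 0.38 was not called (edgeR adjusted p = 0.572). With the replicate block it was called higher, at 0.62 (edgeR adjusted p = 0.0134), and with the block plus trend removal at 0.51 (edgeR adjusted p = 0.0443). Aldh1a7 is a near copy of Aldh1a1 next to it in the genome, and counts of either may hold reads of the other. Aldh1a7 was at 18.1, 12.2 and 8.69 CPM in GFP libraries, against 15.6 and 8.88 CPM in Bulk libraries.

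Aldh1a2 (ENSMUSG00000013584.6), the main such enzyme of the early mouse embryo, was at 2.04, 0.769 and 0.214 CPM in GFP 1, 2 and 3, against 1.92 and 0.897 CPM in Bulk 1 and 2. GFP 1 and Bulk 1 were the high libraries and GFP 3 the low one, from 161, 51 and 20 counts in GFP libraries and 115 and 100 counts in Bulk libraries. The log2 difference of -0.48 ± 0.79 was not called (edgeR adjusted p = 0.82), and it was 0.01 without GFP 3. Per kilobase of exon, Aldh1a3 was at 0.141, 0.11 and 0.195 of the level of Aldh1a1 in GFP 1, 2 and 3, against 2.38 and 5.5 times it in Bulk 1 and 2. So Aldh1a3 was the lower of this pair in each GFP library and the higher in each Bulk library. Aldh8a1, an enzyme with activity on another retinaldehyde isomer, had 2 to 18 counts in GFP libraries and 10 and 22 counts in Bulk libraries and was not called (edgeR adjusted p = 0.805).

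Both CRABP genes were lower in GFP libraries. Crabp1 (ENSMUSG00000032291.9), whose product is thought to lead retinoic acid towards breakdown, was at 0.443, 0.437 and 0.289 CPM in GFP 1, 2 and 3, against 1.10 and 2.88 CPM in Bulk 1 and 2. The GFP values were close together and the 2 Bulk values were not, from 35, 29 and 27 counts in GFP libraries and 66 and 321 counts in Bulk libraries. It fell by 2.36 ± 0.49 on the log2 scale (edgeR adjusted p = 0.0307). Without Bulk 2 the log2 change was -1.51 and not called (edgeR adjusted p = 0.452). Without GFP 1, GFP 2 or GFP 3 the call was also lost (edgeR adjusted p = 0.0701, 0.0687 and 0.0502), while the log2 changes stayed near the reported one, at -2.47, -2.45 and -2.19.

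Crabp2 (ENSMUSG00000004885.6), whose product passes retinoic acid to its nuclear receptors and whose gene is itself known to respond to retinoic acid, was at 33.5, 24.3 and 22.3 CPM in GFP 1, 2 and 3, against 76.8 and 46.1 CPM in Bulk 1 and 2. Bulk 1 was the highest, and the highest GFP library was below Bulk 2. It fell by 1.20 ± 0.27 on the log2 scale (edgeR adjusted p = 0.0451). It was not called without Bulk 1 (log2 -0.79, edgeR adjusted p = 0.304), GFP 2 (0.125) or GFP 3 (0.0669), or by limma-voom (adjusted p = 0.0518). Fabp5, whose product carries fatty acids and can carry retinoic acid to another receptor family, was at 248.5, 215.9 and 133.3 CPM in GFP libraries, against 366.8 and 281.6 CPM in Bulk libraries. Its log2 difference of -0.70 ± 0.29 was not called (edgeR adjusted p = 0.286). The replicate block brought a call (edgeR adjusted p = 0.00506).

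Cyp26b1 (ENSMUSG00000063415.13), which inactivates retinoic acid, was at 20.2, 28.7 and 26.1 CPM in GFP 1, 2 and 3, against 16.8 and 23.6 CPM in Bulk 1 and 2. GFP 2 and GFP 3 were the highest libraries, and GFP 1 lay between the 2 Bulk libraries. The log2 difference of 0.31 ± 0.24 was not called (edgeR adjusted p = 0.602), nor with the replicate block (0.159). With the block plus trend removal it was called higher, at 0.42 (edgeR adjusted p = 0.0153). The other CYP26 genes, Cyp26a1 and Cyp26c1, were too low to test.

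Rarg (ENSMUSG00000001288.16), the retinoic acid receptor best known in epidermis, was at 536.5, 558.7 and 503.0 CPM in GFP 1, 2 and 3, against 475.1 and 528.6 CPM in Bulk 1 and 2. The groups overlapped over a narrow range, with a log2 difference of 0.09 ± 0.21 (edgeR adjusted p = 0.881). Per kilobase of exon, Rarg was at 12.1, 11.4 and 9.28 times the level of Rara in GFP 1, 2 and 3, against 9.61 and 9.16 times in Bulk 1 and 2. Rarb, the third receptor gene, was at 0.076, 0.136 and 0.0321 CPM in GFP libraries, against 0.368 and 0.458 CPM in Bulk libraries. All GFP libraries were below both Bulk libraries, and the log2 difference of -2.37 ± 0.64 was not called (edgeR adjusted p = 0.0868). It was called in the fit with the replicate block (edgeR adjusted p = 0.00357). Of the RXR partners, Rxra was at 305.5, 287.0 and 301.4 CPM in GFP libraries and 354.4 and 309.9 CPM in Bulk libraries, and Rxrb was at 94.2, 84.0 and 73.8 CPM in GFP libraries and 66.3 and 72.1 CPM in Bulk libraries. Neither was called (edgeR adjusted p = 0.75 for Rxra and 0.535 for Rxrb), and Rxrb was called higher with the replicate block (0.0317). No count of Rxrg was found in any library.

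The wider list of the pathway held 53 genes, the members among them, of which 45 were tested. In GFP libraries 6 were lower, 0 higher and 39 not called by edgeR, with a median log2 change of -0.12. At an unadjusted p under 0.05, 12 were lower and 1 higher, and DESeq2 and limma-voom called 0 higher. Over all 18583 tested genes, DESeq2 called 1311 lower and 188 higher, and limma-voom 989 lower and 37 higher. The share of all tested genes at that unadjusted level is not given here. These and the other unadjusted counts are therefore not set against a background. Outside the members, 36 of 44 were tested and 3 were lower, the genes Rdh1, Rdh16 and Adh1 described above. Without GFP 3, 1 of 9 members and 5 of 45 tested pathway genes were lower, against 1109 of all 17834 tested genes in that fit. With the replicate block 14 pathway genes were lower and 8 higher, against 19.7% and 16.4% of all tested genes, so the higher calls were near the background. Of 11 genes of retinoid uptake and storage, 9 were tested and 0 were called by edgeR, with 3 lower and 0 higher at an unadjusted p under 0.05, and 1 called lower by DESeq2 and 1 by limma-voom. Stra6, the membrane receptor for the retinol carrier of blood, was at 6.14, 11.1 and 0.878 CPM in GFP 1, 2 and 3, against 31.5 and 53.9 CPM in Bulk 1 and 2. All GFP libraries were below both Bulk libraries, and the log2 difference of -2.83 ± 0.78 missed the threshold (edgeR adjusted p = 0.0982). It passed without GFP 3 (edgeR adjusted p = 0.0121), without GFP 2 (0.0369), by limma-voom (0.0426), when low genes were kept, and in both block fits. The group difference in the block fits does not draw on GFP 3 either. Rbp2, a cellular retinol-binding protein gene, was at 11.97, 14.3 and 9.45 CPM in GFP libraries, against 23.0 and 18.6 CPM in Bulk libraries (log2 -0.80 ± 0.24, edgeR adjusted p = 0.126). It was called lower with the replicate block (edgeR adjusted p = 0.000311) and also by DESeq2 (0.0434). Lrat, which makes retinyl esters, was at 12.7, 10.4 and 12.4 CPM in GFP libraries, against 11.8 and 12.1 CPM in Bulk libraries. Of 13 genes known to respond to retinoic acid, 12 were tested, 1 was lower (Crabp2), 0 were higher and 11 were not called. The median log2 change of these 12 was -0.04, with 3 lower and 0 higher at an unadjusted p under 0.05 and 0 higher by the other tools. In the block fit 4 of the 12 were lower and 2 higher (background 19.7% and 16.4%). With the trend removed as well, 4 were lower and 3 higher (background 16.9% and 15.8%).

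**Figure D2:**
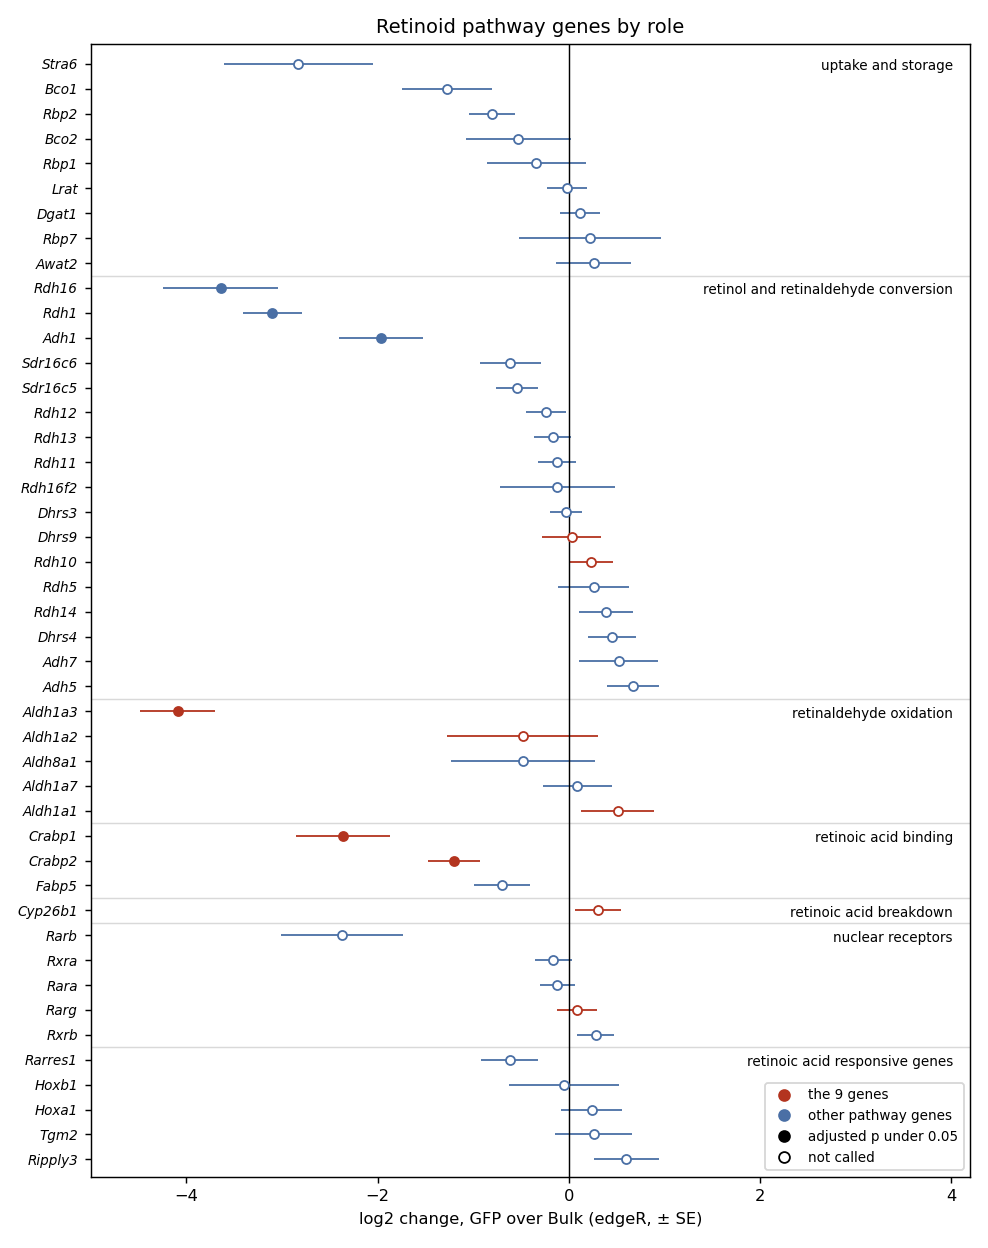
Log2 change (x axis, GFP over Bulk, edgeR estimate ± SE) of the 45 tested pathway genes, each drawn once under its first role and sorted within it; red marks the 9 genes, blue the other genes, and filled points an adjusted p under 0.05. The filled points are Rdh16, Rdh1, Adh1, Aldh1a3, Crabp1 and Crabp2, all left of 0.

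In these bulk samples, fewer cells of a type and less RNA per cell cannot be told apart. Summed markers of most other cell types also differed between the groups, and no marker list had a gene at 0 in all libraries of a group. Over all tested genes edgeR called 5.14% lower and 0.145% higher, the background for the marker counts below. The 14 matched genes of hair matrix, inner root sheath and hair shaft were all called lower, and summed to 79.5, 81.3 and 80.1 CPM in GFP 1, 2 and 3, against 1697 and 3293 CPM in Bulk 1 and 2. Aldh1a3 had the same order of libraries between the groups and between Bulk 1 and Bulk 2. That order was also found in the dermal papilla, Langerhans and myeloid, and red blood cell sums. Bulk 1 and Bulk 2 differed little in the Langerhans sum (351.3 and 353 CPM) and the red blood cell sum (193.9 and 201.9 CPM). Within the GFP group the hair sums hardly differed, and Aldh1a3 was lowest in GFP 2, at 19 counts. The dermal papilla list, with 4 of 9 genes lower, summed to 7.02, 9.68 and 15.04 CPM in GFP libraries, against 17.4 and 42.2 CPM in Bulk libraries. Crabp1 was likewise highest in Bulk 2, and within the GFP group it was lowest in GFP 3, where the papilla sum was highest and 1 gene that was not called, Rspo3, gave 8.41 CPM of it. Dermal fibroblast markers, with 2 of 10 lower, summed to 199.8, 66.8 and 37.7 CPM in GFP libraries, against 230 and 198.1 CPM in Bulk libraries. Aldh1a2 had the same order within the GFP group, with GFP 1 highest and GFP 3 lowest, an order also found in the sums of the basal, outer root sheath, upper follicle, Langerhans, T cell and red blood cell lists. The suprabasal and cornified list, with 5 of 11 lower, summed to 9161, 12621 and 9300 CPM in GFP libraries, against 22775 and 17827 CPM in Bulk libraries, and the sebaceous gland list, with 4 of 9 lower, to 230.2, 269.8 and 191.5 CPM, against 589.5 and 520.4 CPM. Crabp2 was highest in Bulk 1, as were these sums and those of the dermal fibroblast, melanocyte and T cell lists. Within the GFP group Crabp2 was highest in GFP 1, and both the suprabasal and the sebaceous sum in GFP 2. The T cell sum had the order of Crabp2 over all libraries, at 52.8, 34.0 and 29.2 CPM in GFP libraries, against 192.2 and 148.7 CPM in Bulk libraries. Melanocyte markers were lower for 7 of 8 genes, Langerhans and myeloid markers for 9 of 9, T cell markers for 7 of 8 and red blood cell markers for 5 of 5. Basal layer markers summed to 43731, 37717 and 34894 CPM in GFP libraries, against 22660 and 25561 CPM in Bulk libraries, with 0 of 10 called by edgeR, 4 higher at an unadjusted p under 0.05, 2 higher by DESeq2 and 0 by limma-voom. Over all 18583 tested genes DESeq2 called 188 higher and limma-voom 37. With the replicate block 7 of the 10 basal markers were called higher (background 16.4%), and 9 with the trend removed as well (background 15.8%). The upper follicle and junctional zone list, which holds Lrig1, summed to 7138, 6085 and 4599 CPM in GFP libraries, against 4000 and 4168 CPM in Bulk libraries. Of its 8 genes 0 were called, and 6 were higher with the replicate block (background 16.4%). The outer root sheath and bulge list summed to 4791, 4012 and 2908 CPM in GFP libraries, against 2725 and 2901 CPM in Bulk libraries, with 1 of 9 lower. The endothelial and mural sum overlapped between the groups, at 31.8, 33.3 and 27.1 CPM in GFP libraries, against 27.9 and 35.7 CPM in Bulk libraries. Cspg4, which was not called, gave 19.2 to 27.7 CPM of that sum. Of the 8 genes of the list, 2 were called lower and 0 higher, with a median log2 change of -1.83. The part of these cell types in the values of the retinoid genes was not tested.

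**Figure D3:**
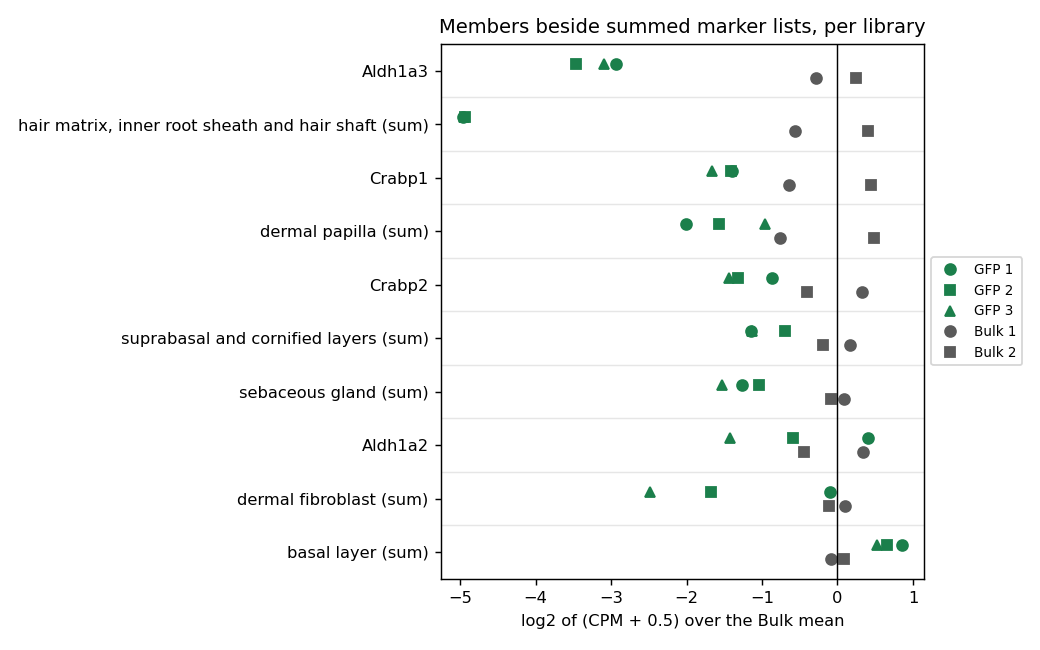
Log2 of (CPM + 0.5) relative to the Bulk mean (x axis) in each library, for Aldh1a3, Crabp1, Crabp2 and Aldh1a2 and for the summed CPM of marker lists; green marks GFP and grey Bulk libraries. GFP libraries lie at -2.94 to -3.47 for Aldh1a3 and at -4.93 to -4.96 for the hair list, where GFP 2 and GFP 3 partly cover each other.

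Levels per kilobase of exon put Rarg first in both groups, at 125 ± 6.58 CPM per kb in GFP libraries and 118 ± 8.88 in Bulk libraries (SD, n = 3 and 2). Crabp2 came next, at 20.2 ± 4.49 in GFP libraries and 46.5 ± 16.4 in Bulk libraries, followed by Cyp26b1, at 4.67 ± 0.812 in GFP libraries and 3.77 ± 0.90 in Bulk libraries. In GFP libraries the order went on with Rdh10 (2.94), Dhrs9 (1.97), Aldh1a1 (0.702), Crabp1 (0.486), Aldh1a2 (0.445) and Aldh1a3 (0.104 CPM per kb). In that order the libraries of Rdh10 and Dhrs9, of Crabp1 and Aldh1a2, and of Aldh1a2 and Aldh1a3 overlapped. In Bulk libraries the order was Rdh10 (2.51), Crabp1 (2.48), Dhrs9 (1.93), Aldh1a3 (1.77), Aldh1a2 (0.623) and Aldh1a1 (0.493 CPM per kb). There each neighbouring pair from Rdh10 to Aldh1a3 overlapped, as did Aldh1a2 and Aldh1a1. Aldh1a3 was thus last of the 9 in GFP libraries and seventh in Bulk libraries, ahead there of the other ALDH1A genes. With the longest transcript as the length, 0 members changed place in the GFP order and 4 in the Bulk order, where Aldh1a3 passed Dhrs9 and Aldh1a1 passed Aldh1a2.

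**Figure D4:**
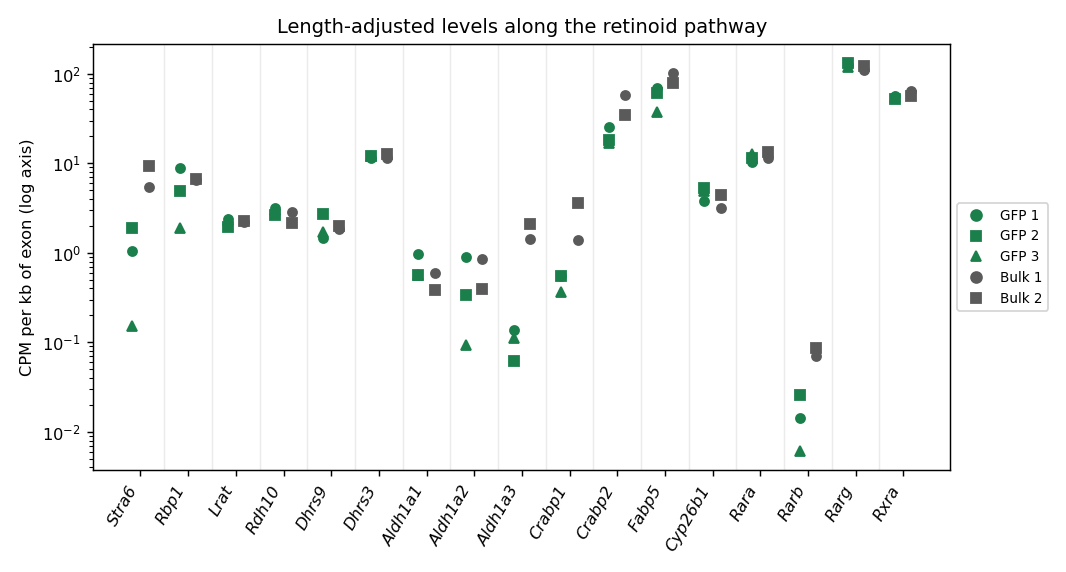
CPM per kilobase of exon (y axis, log scale) of selected pathway genes in each library, ordered from uptake to receptors, with GFP libraries (green) left of Bulk libraries (grey). Rarg lies near the top in both groups, at 118 to 131 in GFP libraries and 111 to 124 in Bulk libraries, and Aldh1a3 lies at 0.0621 to 0.137 in GFP libraries and 1.44 to 2.11 in Bulk libraries.

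The members did not follow one pattern across the 5 libraries. The Euclidean distance between centred log2(CPM + 0.5) profiles was smallest for Aldh1a1 and Rdh10 (0.481) and largest for Aldh1a1 and Aldh1a3 (3.99). Crabp1 and Crabp2 were 1.34 apart. Outside the pathway, the tested genes nearest to Aldh1a3 were Runx3, a transcription factor gene (distance 0.181), and Arnt2, of the bHLH-PAS family (0.27). Runx3 was at 0.519, 0.272 and 0.386 CPM in GFP libraries, against 6.52 and 8.34 CPM in Bulk libraries. Nearest to Crabp1 were Pdgfra, a growth factor receptor gene that is also on the dermal fibroblast list (0.188), and Zfp831 (0.19), and nearest to Crabp2 were Il18, a cytokine gene (0.212), and Gal3st1 (0.223). Aldh1a1 lay nearest to Nme7 (0.0915) and Mad2l1bp (0.0961), and Aldh1a2 to Csn3 (0.31) and Mgst1 (0.358). Pdgfra was at 0.279, 0.362 and 0.107 CPM in GFP libraries, against 0.886 and 2.32 CPM in Bulk libraries. Rdh10 lay nearest to Brms1l (0.0374) and Ube2n (0.0529), and Dhrs9 to Dnmbp (0.187) and Cyp51 (0.205). Cyp26b1 lay nearest to Bcl3 (0.0996) and Btbd11 (0.103), and Rarg to Gna11 (0.0351) and Myo1e (0.0454). Distances are small among genes that hardly vary, such as these last, and they carry no test.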

How the data were processed

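The 5 libraries (3 GFP, 2 Bulk) were compared from the deposited table of whole-number counts per Ensembl gene ID, which are not normalized. The aligner STAR and the build GRCm39 are named per the submitters' processing notes. The tool versions, the counter, the annotation and the strand setting were not given in the sources used here, so overlapping or antisense genes cannot be separated. Symbols and gene lengths came from GENCODE M21 (build GRCm38) by gene ID: 52073 of 56691 IDs matched. No gene coordinates are given, except for RefSeq promoters on their own build. Counts carry no molecular identifiers.

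The test was edgeR 4.0.16 (R 4.3.3) with TMM scaling, filterByExpr (minimum count 10, minimum total 15), a group term and the two-sided quasi-likelihood test, with Benjamini-Hochberg adjustment over 18583 genes and a threshold of 0.05. It leaves 3 residual degrees of freedom, and 1 with the replicate block, in which GFP 3 has a term to itself. The script was tested on simulated data. Levels are CPM scaled by TMM, and levels per kb use the union of a gene's exons. Alternatives were other scalings and filters, DESeq2 1.42.0, limma-voom (limma 3.58.1), the replicate block, removal of a loess trend on length and GC (18107 genes with a length), and leaving out each library. The block follows the shared title numbers, whose meaning is not stated: the difference of GFP 1 and GFP 2 correlated across genes with that of Bulk 1 and Bulk 2 (Pearson r = 0.474, genes not being independent replicates).

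Named genes were the 9 members, called genes of the wider pathway list, of each role the 2 tested genes outside the members with the smallest p (which may be called ones), and for each member the 2 nearest genes outside the pathway lists by profile distance (pseudocount 0.5 CPM). Bco1 and Cyp26a1 were named for their promoters, and Cyp26c1, Rxrg, Dhrs3, Lrat, Rara, Rxra, Adh5, Adh7, Dhrs4, Rdh14, Sdr16c5, Sdr16c6 and Rspo3 after their values were seen. The members and lists were chosen with earlier results of these data known.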

Additional observations from a re-analysis of the deposited data

How the results depend on the processing

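Of the 15 alternatives, all kept Aldh1a3 and Rdh1 lower and called. Genes called over all tested genes numbered 982, against 1499 by DESeq2's Wald test, 1918 when low genes were kept, 6692 with the replicate block, 5929 with the replicate block and the trend removed, and 480 to 1205 with 1 library left out. Members called lower, 3 in the reported fit, numbered 1 to 2 with 1 library left out, and members called higher, 0 in the reported fit, numbered 1 with the replicate block and 2 with the trend removed as well. Pathway genes called lower, 6 in the reported fit, numbered 14 in both block fits and 3 to 5 with 1 library left out, and those called higher numbered 8 in both block fits. Scaling by library size alone moved the median log2 change of all tested genes to -0.068, against 0.051, and with it Dhrs9 to -0.10 and Rarg to -0.04. Dhrs9 was also at -0.04 with limma-voom, -0.0017 with the filter of 1 CPM and -0.03 with the trend removed, and at -0.28 to 0.21 with 1 library left out, and Aldh1a2 was at -1.53 to 0.17 with 1 library left out. The cause was not tested. Fits without 1 Bulk library assume that the other varies like the GFP libraries. Genes with few counts, such as Crabp1, Aldh1a2 and Rarb, are limited by depth as well as by 5 libraries.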
